A study of Danio rerio with 8 samples.

Results

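The proteasome subunit genes of the zebrafish embryo were compared between SU5402 and DMSO embryos at the dome stage, a blastula stage soon after zygotic transcription begins. Members were chosen by name alone: a row of the expression table counted when its single gene name, in lower case, began with psma to psmg and a digit, or with pomp, adrm1, uchl5 or shfm1. This gave 56 genes of 33843 rows. Of the 56, 40 are subunits of the core or the regulatory particle and 15 are assembly chaperones, activators, an inhibitor or a bound enzyme. The remaining 1, psmc3ip, is a meiotic recombination factor that the name rule also caught. A further 2 rows join a proteasome gene with another gene name and fell outside the rule.

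The treated embryos received 20 µM SU5402, an inhibitor of the FGF receptor kinase, from the 2-cell stage. Control embryos received an equal volume of the solvent DMSO, and both groups were raised at 28 °C. The labels name no strain or allele, and the series' design text calls the untreated embryos WT. Each RNA-seq group had 2 samples of whole embryos. The authors' table gives 1 FPKM value per condition (fragments scaled to transcript length and to the size of the library), taken here as both samples pooled. The values below therefore carry no replicate error, and the depth per sample is unknown. The p-values and q-values are those of the authors' Cuffdiff comparison. Nothing in the labels says whether the replicates came from separate clutches, so they may measure technical spread only. The 4 ATAC-seq samples of the series were not analysed here. In whole embryos, fewer cells of a type and less RNA per cell cannot be told apart.

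The proteasome is the protease that degrades ubiquitin-tagged proteins in the cytosol and nucleus. Its core particle is a barrel of stacked rings. The outer alpha rings gate the entrance and the inner beta rings carry the proteolytic sites. The regulatory particle sits on the barrel: its lid and base bind the ubiquitin chain, remove it, and unfold the substrate with a ring of ATPases. In dividing cells, early blastomeres included, it removes cyclins at each division.

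Few proteasome transcripts were called different between SU5402 and control embryos, and none by a large factor. Of the 48 members that Cuffdiff tested, the authors' deposited table called 3 higher in SU5402 (psma4, psmb2 and psmd7), none lower, and 45 were not called. That is 6.25% of the tested members, against 5.64% of all 12757 tested loci (3.58% higher and 2.06% lower). The share called was thus close to the background and is no result about the family. The counts called by role below cover few genes each and are no result about a role either. The same 3 were the only members with an unadjusted deposited p under 0.05, a level that 11.1% of all tested loci reached. With a stricter reading, in which the deposited p-values were adjusted by Benjamini-Hochberg across the 12757 tested loci, 0 members passed, against 1.65% of all tested loci. For each of the 720 called loci and each of the 48 tested members the deposited q was below this adjusted p. The set of comparisons over which the authors' q was computed is not stated, so the 3 calls hold on the deposited q only.

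The typical size of a change was that of the table as a whole, while large changes were fewer. The median absolute log2 change was 0.27 over the tested members and 0.27 over all tested loci, and 0.25 over tested loci at 5 FPKM or more in the higher condition. The signed median of the 48 tested members was a log2 change of 0.14, with an interquartile range of -0.04 to 0.31, against a median of 0.04 and an interquartile range of -0.22 to 0.32 for all tested loci. By value alone 31 were higher and 17 lower in SU5402, so 64.6% were higher, against 54.4% of all tested loci. No tested member reached a 2-fold difference, which 7.90% of all tested loci did. A fold over 1.5 either way was reached by 2 members, or 4.17%, against 20.4% of all tested loci. Of tested loci at 5 FPKM or more in the higher condition, 17.0% reached it. A further member, psmd7, lay just under this cut at 1.497-fold. The median control level was 23.0 FPKM for the tested members and 9.94 FPKM for all tested loci. For tested loci at 5 FPKM or more in the higher condition it was 16.7 FPKM. The part of level in the fewer large changes was not tested. The summed level of the tested members was 1951 FPKM in SU5402 and 1838 FPKM in control embryos, a ratio of 1.06, and the ratio of the sums over all tested loci was 1.08. All 48 tested members reached 1 FPKM in both conditions, so none was tested through 1 condition only.

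**Figure D1:**
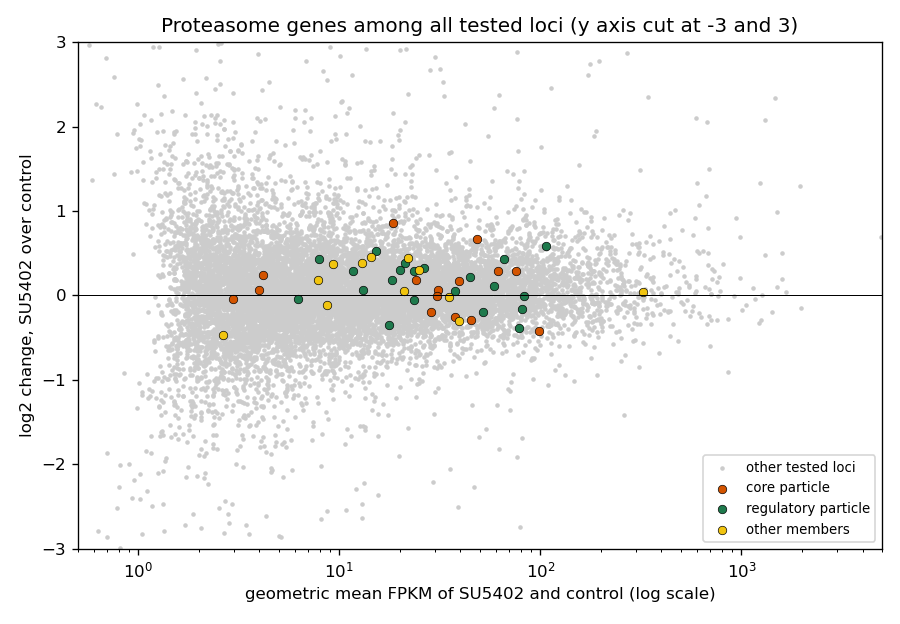
Log2 change of FPKM, SU5402 over control (y axis, cut at -3 and 3), against the geometric mean FPKM of both conditions (x axis, log scale) for tested loci listed above 0 in both. Each point is 1 locus, with the 48 tested proteasome genes coloured by particle; they lie between log2 changes of -0.47 and 0.86, inside the cloud of the other loci at the same level.

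Among the alpha ring genes, psma4 stood at 24.8 FPKM in SU5402 embryos and 13.7 FPKM in control embryos. It encodes the subunit whose tail closes the entrance of the core particle in yeast. In the authors' deposited table this was the largest change of any tested member, 1.81-fold higher in SU5402 (log2 change 0.86, p = 0.00425, q = 0.0178). Adjusted over the whole table its p was 0.133. The gene lies on chromosome 25 of the Zv9 build from 6564833 to 6576723, in a locus with no other row.

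The other alpha genes were not called. The most abundant of them in control embryos, psma5, was listed at 85.5 FPKM in SU5402 and 114 FPKM in control (log2 change -0.42, q = 0.302 in the authors' deposited table). Its locus also holds the row of sypl2a. The next, psma3, had 83.5 FPKM in SU5402 and 68.5 in control. The level of psma6a was 42.0 FPKM in SU5402 and 37.2 in control, and that of psma2 was 25.6 in SU5402 and 22.5 in control. The values of these genes thus lay on both sides of equality. For psma8, in mammals the germ cell paralogue of psma7, the values were 31.6 FPKM in SU5402 and 30.2 in control; no row of the rule was named psma7. The remaining 2 tested alpha genes were low, psma1 at 4.09 FPKM in SU5402 and 3.90 in control and psma6b at 2.92 in SU5402 and 3.002 in control. Over the 8 tested alpha genes the median log2 change was 0.12, with 6 higher and 2 lower by value. The share higher was thus 75%, against 54.4% of all tested loci. With so few genes, no direction is read from this share. The summed level of the 8 genes was 300.07 FPKM in SU5402 and 293 FPKM in control.

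The authors' deposited table called none of the 3 catalytic beta genes, against 5.64% of all tested loci. The chymotrypsin-like subunit gene psmb5 had 68.2 FPKM in SU5402 embryos and 55.7 FPKM in control embryos (q = 0.565 in that table). The trypsin-like subunit gene psmb7 had 26.8 FPKM in SU5402 and 30.7 in control. The caspase-like subunit gene psmb6 was much lower, at 4.56 FPKM in SU5402 and 3.86 in control. The level per length thus differed more between these 3 subunits, which each barrel holds in equal number, than between the conditions.

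Of the 4 structural beta genes, psmb2 was called higher in the authors' deposited table, at 61.3 FPKM in SU5402 and 38.6 FPKM in control (1.59-fold, log2 change 0.67, p = 0.01, q = 0.0358). Adjusted over the whole table its p was 0.215. It lies alone in its locus on chromosome 19 from 49312244 to 49329959. The other structural members were lower by value and not called. These were psmb4 (40.9 FPKM in SU5402, 50.1 in control), psmb3 (34.5 in SU5402 and 41.3 in control) and psmb1 (30.3 in SU5402 and 30.6 in control). The median log2 change over the 4 was -0.14.

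The genes classed by name as inducible or tissue-specific beta genes were near the floor of the table. In mammals, inducible beta subunits replace the catalytic ones in the immunoproteasome. PSMB10 on chromosome 4 was listed at 0.516 FPKM in SU5402 and 1.03 FPKM in control, psmb11 at 1.24 in SU5402 and 0.220 in control, and psmb9a at 0.777 in SU5402 and 0.155 in control. None of the 3 was tested. Both psmb9a and psmb11 share a single locus on chromosome 19, from 7728374 to 7767121, with abcb3l1 and with a row that joins psmb10 and psmb8. That joined row was at 0.276 FPKM in SU5402 and 0.427 in control, so reads may be split between these near neighbours. The fold differences of these genes at about 1 FPKM or less are not read further.

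**Figure D2:**
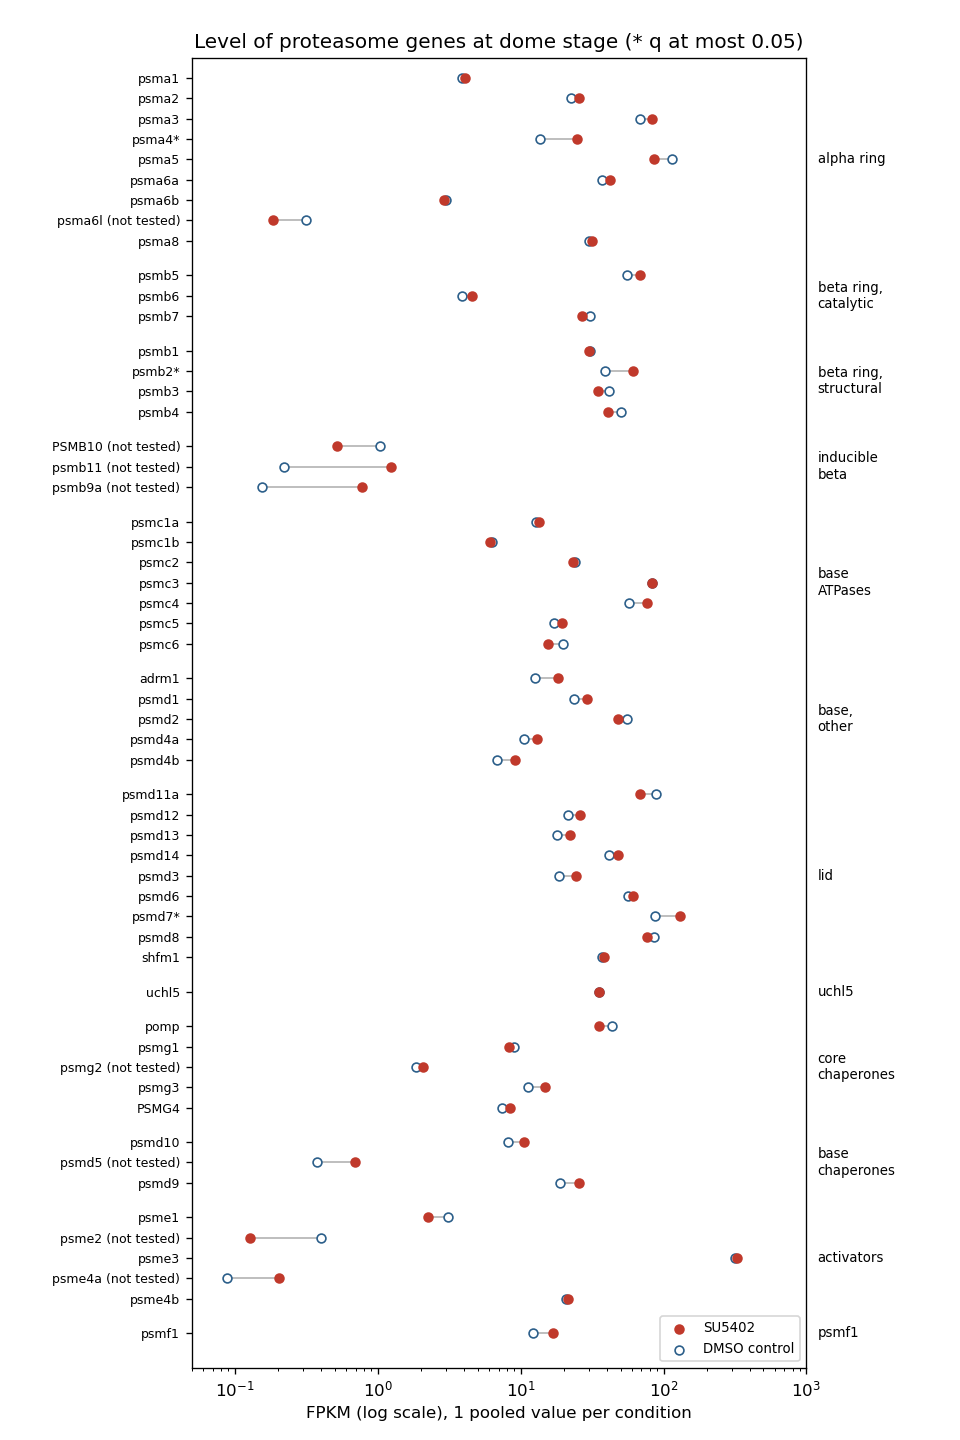
FPKM of 55 proteasome genes (x axis, log scale; psmc3ip left out) with SU5402 as filled red points and DMSO control as open blue points, 1 pooled value per condition, grouped by role. The 3 genes with an asterisk passed the authors' q of at most 0.05, and for most genes the distance between conditions is small beside the distance between genes.

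In the regulatory particle, none of the 7 base ATPase genes was called in the authors' deposited table, against 5.64% of all tested loci. These encode the hexameric motor that unfolds substrates and threads them into the core. The most abundant, psmc3, was nearly equal at 82.9 FPKM in SU5402 and 83.3 FPKM in control embryos. The largest difference was that of psmc4, with 76.9 FPKM in SU5402 and 56.9 in control (log2 change 0.43, p = 0.0675, q = 0.162 in the authors' deposited table). In the other direction psmc6 had 15.6 FPKM in SU5402 and 19.9 in control. The motor subunits thus went both ways by value. The values of psmc2 were 23.2 FPKM in SU5402 and 24.0 in control, and those of psmc5 were 19.5 in SU5402 and 17.1 in control. With psmc1a at 13.3 FPKM in SU5402 and 12.8 in control and psmc1b at 6.14 in SU5402 and 6.31 in control, the ATPase median log2 change was -0.01.

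None of the other base genes was called, against 5.64% of all tested loci. The ubiquitin receptor gene adrm1 had 18.2 FPKM in SU5402 and 12.6 FPKM in control (1.44-fold, log2 change 0.52, p = 0.0512, q = 0.131 in the authors' deposited table), the member nearest to the threshold of those not called. Its locus also holds rows for a ribosomal RNA gene and lama5. A second ubiquitin receptor is encoded by psmd4a, at 12.98 FPKM in SU5402 and 10.6 in control, and psmd4b, at 9.16 in SU5402 and 6.80 in control. Of the large scaffold subunits, psmd1 had 29.3 FPKM in SU5402 and 23.5 in control, and psmd2 had 48.3 in SU5402 and 55.3 in control. Of these 5 genes 4 were higher by value (80%, against 54.4% of all tested loci), and their median log2 change was 0.32. With so few genes and no call, no direction is read from this.

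The lid held the third called gene. Transcript of psmd7, which encodes the partner of the deubiquitinase psmd14 in the lid, stood at 130.0 FPKM in SU5402 embryos and 86.9 FPKM in control embryos. In the authors' deposited table it was 1.497-fold higher in SU5402 (log2 change 0.58, p = 0.00105, q = 0.00550). It had the lowest q of all members, and its p adjusted over the whole table was 0.0577. It lies on the unplaced scaffold 3511 of Zv9 from 27578 to 34417, with no other row in the locus. Its partner psmd14, which cuts the ubiquitin chain from the substrate, was not called at 48.1 FPKM in SU5402 and 41.5 in control.

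The other lid genes were not called. The most abundant of them in control, psmd11a, was lower by value, with 68.3 FPKM in SU5402 and 88.8 in control (log2 change -0.38, p = 0.0585, q = 0.145 in the authors' deposited table). The row that joins its paralogue psmd11b with OGFOD3 had 32.5 FPKM in SU5402 and 34.3 in control. Lid gene psmd8 was at 76.7 FPKM in SU5402 and 85.4 in control. The levels of psmd6 were 60.9 FPKM in SU5402 and 56.5 in control, and those of psmd12 were 25.998 in SU5402 and 21.3 in control. Each of psmd11a, psmd8, psmd6 and psmd12 differed by less than 1.5-fold. Next came psmd3 with 24.4 FPKM in SU5402 and 18.6 in control, and psmd13 with 22.3 in SU5402 and 18.1 in control. The small acidic subunit gene shfm1, now named sem1 and also a partner of BRCA2 in mammals, had 38.4 FPKM in SU5402 and 37.1 in control. Of the 9 lid genes 7 were higher by value (77.8%, against 54.4% of all tested loci), with a median log2 change of 0.21. Here too the genes are few, and no direction is read from this share.

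**Figure D3:**
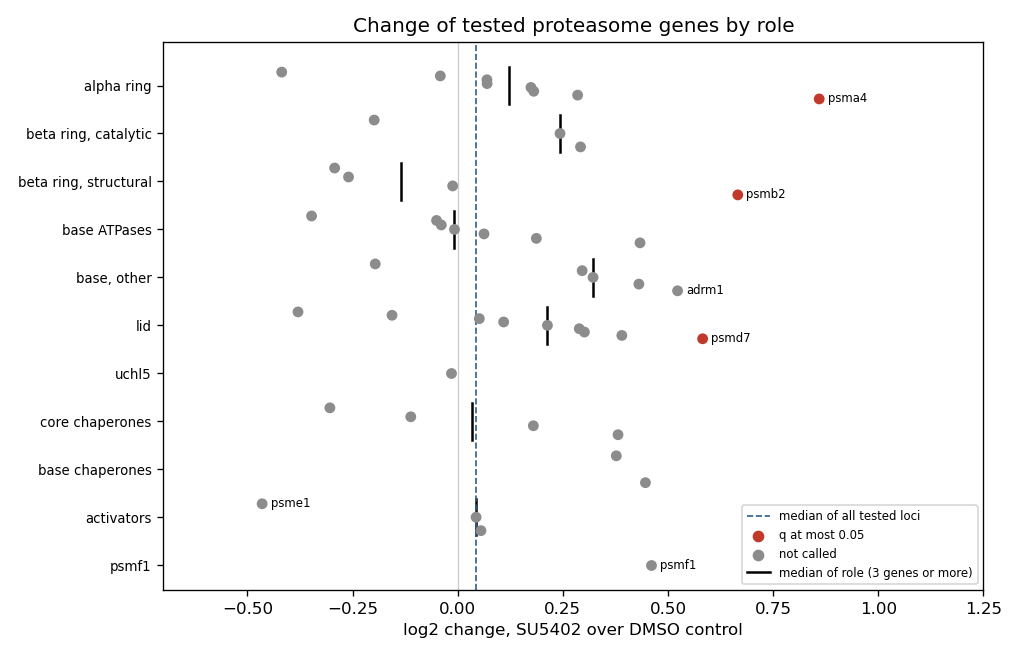
Log2 change, SU5402 over DMSO control (x axis), of each tested proteasome gene by role (rows), from 1 pooled value per condition. Red points passed the authors' q of at most 0.05, black bars are role medians, and the dashed line is the median of all tested loci at 0.04; points of every role with 3 or more genes lie on both sides of it.

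Set side by side, the core genes had the wider full range but the smaller median absolute log2 change. That median was 0.24 in the core and 0.29 in the regulatory particle. The 15 tested core genes had a median log2 change of 0.07 and ranged from -0.42 to 0.86, with 9 higher by value and 2 called. The 21 regulatory genes had a median of 0.19 and ranged from -0.38 to 0.58, with 14 higher by value and 1 called. The low end of the core is psma5, which shares its locus with another row. Among genes alone in their locus, the lowest core gene was psmb4 at -0.29 and the lowest regulatory gene psmd11a at -0.38. The share higher by value was 60% in the core and 66.7% in the regulatory particle, against 54.4% of all tested loci. The share called was 13.3% in the core and 4.76% in the regulatory particle, against 5.64% of all tested loci. With so few genes these counts are no result about either particle. Summed FPKM was 567 in SU5402 and 544 in control for the core, a ratio of 1.04, and 851 in SU5402 and 783 in control for the regulatory particle, a ratio of 1.09. The difference of the medians, core minus regulatory, was -0.12, and became -0.0062 when genes that share their locus with another row were left out. Genes of a particle are not replicates and the table gives no value per sample, so the difference has no test.

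Of the assembly chaperones, which leave the finished particle, the authors' deposited table called none of 6 tested, against 5.64% of all tested loci. The gene of the core maturation factor, pomp, had 35.4 FPKM in SU5402 and 43.6 FPKM in control. Among the chaperones of the alpha ring psmg1 had 8.31 FPKM in SU5402 and 8.98 in control, psmg3 had 14.8 in SU5402 and 11.3 in control, and PSMG4, which shares its locus with 3 other rows, had 8.36 in SU5402 and 7.38 in control. The partner of psmg1, psmg2, was listed at 2.08 FPKM in SU5402 and 1.86 in control and was not tested. None of these core chaperones reached a 1.5-fold difference. Of the base chaperones, psmd9 had 25.6 FPKM in SU5402 and 18.8 in control and psmd10 had 10.6 in SU5402 and 8.13 in control, while psmd5 (0.692 in SU5402 and 0.373 in control) was not tested. Over the 6 tested chaperones the median log2 change was 0.28, and pomp and psmg1 were the 2 lower by value.

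Of all members, psme3 had by far the most transcript. It encodes the nuclear activator cap PA28 gamma, which opens the core without ubiquitin. Its level was 328 FPKM in SU5402 embryos and 318 FPKM in control embryos, and only 1.21% of all tested loci were higher in SU5402 and 1.12% in control. Its log2 change was 0.04 in the authors' deposited table and it was not called (q = 0.877). The genes of the cytosolic, in mammals interferon-induced, caps were low: psme1 had 2.23 FPKM in SU5402 and 3.08 in control, and psme2, not tested, had 0.127 in SU5402 and 0.398 in control. Transcript of the nuclear cap gene thus exceeded that of the cytosolic cap genes in both conditions. Of the paralogues for the activator PA200, psme4b had 21.4 FPKM in SU5402 and 20.6 in control, and psme4a, not tested, had 0.205 in SU5402 and 0.0872 in control. The inhibitor gene psmf1 (16.8 FPKM in SU5402, 12.2 in control) and the gene of the bound deubiquitinase, uchl5 (35.1 in SU5402 and 35.5 in control), were not called. Neither was psmc3ip, at 27.7 FPKM in SU5402 and 22.4 in control.

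The order of subunit levels was nearly the same in both conditions. Across the 36 tested subunits of the core and regulatory particles, Spearman's rho between SU5402 and control FPKM was 0.97, against 0.95 over all 12757 tested loci; gene length and annotation are shared by both values. Core genes spanned 2.92 to 85.5 FPKM in SU5402 and 3.002 to 114 FPKM in control. Regulatory genes spanned 6.14 to 130.0 FPKM in SU5402 and 6.31 to 88.8 in control. The rank of psmd7 was 1 in SU5402 and 3 in control, and that of psma5 was 2 in SU5402 and 1 in control. Lower down, psmb2 ranked 9 in SU5402 and 14 in control and psma4 ranked 23 in SU5402 and 28 in control. The lowest 3 in both conditions were psmb6, psma1 and psma6b. In all, 40 of the 48 tested members in SU5402 and 39 in control lay above the median FPKM of tested loci, which was 10.3 in SU5402 and 9.94 in control.

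Among the paralogues compared, the same copy had the larger share in both conditions. The pair of psmd11a and psmd11b was left out, because the row of psmd11b is joined with another gene name. Of the summed transcript of psma6a, psma6b and psma6l, psma6a made up 93.1% in SU5402 and 91.8% in control. The row of psma6l, not tested, was at 0.183 FPKM in SU5402 and 0.314 in control. The split was 68.5% in SU5402 and 66.9% in control for psmc1a over psmc1b, and 58.6% in SU5402 and 60.9% in control for psmd4a over psmd4b. For psme4, copy b made up 99.1% in SU5402 and 99.6% in control. Each share comes from 1 pooled value per condition, so it carries no error. The members are scattered over 21 chromosomes and 1 unplaced scaffold, with 8 on chromosome 19, the most on any. A total of 17 members, 13 of them tested, lay in a locus with another row of the table, and none of the 3 called genes did. The tested ones were psma1, psma5, psma8, psmb3, psmc1a, psmc3, adrm1, psmd1, psmd4a, psmd8, PSMG4, psme3 and psmc3ip, and their reads may be split with the neighbouring row.

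Related gene lists were read in the same way, with counts and medians only. Over 8 lists 82 rows were tested, of which the authors' deposited table called 4 higher and 2 lower (7.32%, against 5.64% of all tested loci), with a median log2 change of 0.04. Of 10 tested genes of shuttle factors and other proteasome-bound proteins, 2 were called higher, 1 lower and 7 not. That is 3 of 10 called, against 5.64% of all tested loci. With so few genes and calls in both directions, this share is no result about the list. The gene of the protease ddi2, which in mammals activates the proteasome gene regulator NFE2L1, had 160.3 FPKM in SU5402 and 105 in control (1.52-fold higher, q = 0.00318 in the authors' deposited table), and its p adjusted over the whole table was 0.0371. The proteasome-bound thioredoxin gene txnl1 had 363 FPKM in SU5402 and 259 in control (q = 0.0187 in the authors' deposited table). The arsenite-inducible gene zfand2a was called lower there (q = 0.0223), at 18.8 FPKM in SU5402 and 30.1 in control. Neither txnl1 nor zfand2a passed the table-wide adjustment (p of 0.137 and 0.155). The deubiquitinase gene usp14 had 22.2 FPKM in SU5402 and 19.2 in control and was not called.

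No call was made by the authors' deposited table among 15 tested rows of p97 and its adaptors (median log2 change -0.11), which extract substrates from complexes and membranes. There vcp, the gene of p97 itself, had 76.1 FPKM in SU5402 and 76.4 in control. None was made among 5 tested ubiquitin and ubiquitin-activating genes (median -0.02), where the polyubiquitin gene ubc had 812 FPKM in SU5402 and 662 in control. Candidate regulators of proteasome gene transcription gave none among 8 tested (median -0.21), and nfe2l1a was not tested at 1.07 FPKM in SU5402 and 1.12 in control. The complexes whose subunits resemble those of the lid gave none either. The median log2 change was 0.02 over 8 tested COP9 signalosome genes and 0.18 over 15 tested rows of the translation initiation complex eIF3. Across all tested loci 5.64% were called, so the absence of calls in lists this small is no result about them.

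In the proteotoxic stress list 1 of 13 tested rows was called higher, 1 lower and 11 not (15.4% called, against 5.64% of all tested loci), with a median log2 change of 0.11. The co-chaperone gene dnajb1b had 328 FPKM in SU5402 and 231.5 in control (q = 0.0171 in the authors' deposited table; 0.130 adjusted over the whole table). The small heat shock gene hspb1 had 95.4 FPKM in SU5402 and 183 in control and passed both. The cytosolic chaperonin, which folds actin and tubulin, had 7 of 8 tested genes higher by value (87.5%, against 54.4% of all tested loci). Its median log2 change was 0.31, against 0.04 for all tested loci, and 1 gene was called (12.5%, against 5.64%). That was cct7, with 180.1 FPKM in SU5402 and 114 in control (q = 0.00189 in the authors' deposited table). Its p adjusted over the whole table was 0.0239. Both dnajb1b and cct7 share their locus with another row, so their reads may be split. With so few genes, the shares called or higher in the stress and chaperonin lists are no result about them.

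**Figure D4:**
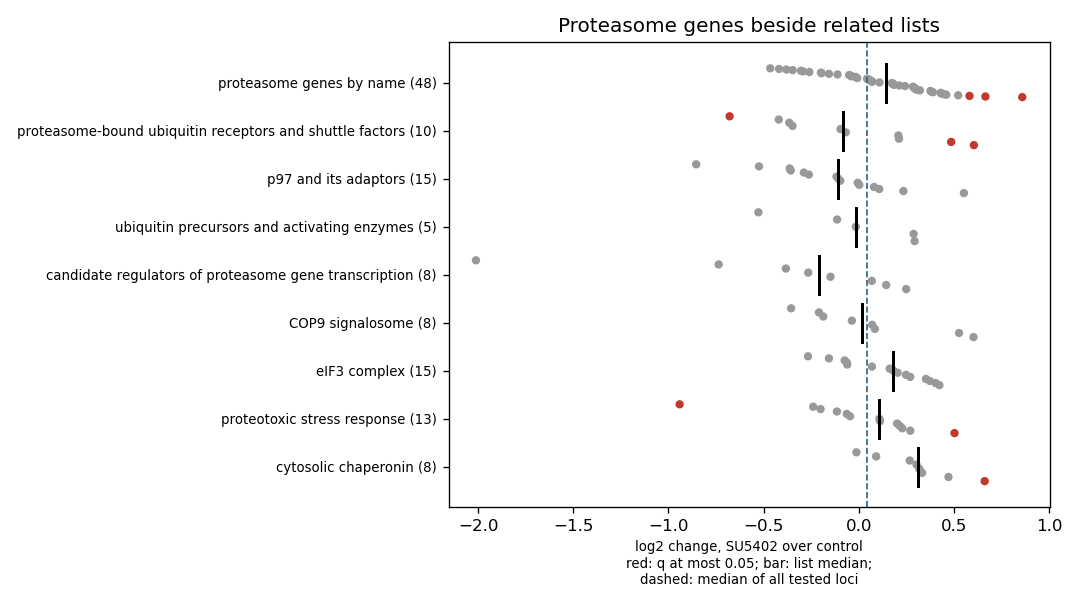
Log2 change, SU5402 over control (x axis), of each tested gene in the proteasome set and 8 related lists (rows, number tested in brackets), from 1 pooled value per condition. Red points passed the authors' q of at most 0.05, bars are medians, and the dashed line is the median of all tested loci; the list medians run from -0.21 to 0.31 and the proteasome median is 0.14.

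The whole-embryo identity of the material was checked with genes of the dome stage and of later tissues. All 12 dome-stage and enveloping layer rows were tested, among them nanog at 1178 FPKM in SU5402 and 1106 in control and krt4 at 62.5 in SU5402 and 66.2 in control. Of these 12, the authors' deposited table called 2 higher and 3 lower in SU5402, or 41.7%, against 5.64% of all tested loci. The higher ones were tbx16 (2680 FPKM in SU5402, 634 in control) and krt8 (106 in SU5402, 69.2 in control). The lower ones were gsc (0.866 in SU5402, 9.50 in control), ntla (3.25 in SU5402, 20.3 in control) and cldne (20.4 in SU5402, 34.0 in control). Of 15 rows for later tissue genes 1 was tested, the neuronal gene elavl3, which had 2.18 FPKM in SU5402 and 0.943 in control and was not called (q = 0.0848 in the authors' deposited table). The highest of the others was the liver gene fabp10a, not tested, with 1.18 FPKM in SU5402 and 0.229 in control. The rows of myog, fabp2, cmlc1 and hbbe1.1 were listed at 0 in both conditions, and the remaining rows stayed under 1 FPKM. The part of these marker differences in the proteasome values was not tested.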

How the data were processed

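Of 8 samples, the 4 RNA-seq samples were used, through a table of the authors' own comparison. The submitters' processing notes list Cuffdiff, Cufflinks, Picard and TopHat2 on build Zv9 (danRer7), with no versions or settings. The headers name 1 FPKM column per condition. From the sample titles, each was taken as both samples of that condition pooled by the authors. FPKM is relative to the library, so a shift in total RNA would be hidden. For every member the deposited log2 fold change matched the FPKM ratio to within 1e-05. The deposited test score was not used. Each deposited p-value and q-value was used unchanged, with a call at a q of at most 0.05, and the p-values were also adjusted over all 12757 tested loci (Benjamini-Hochberg, checked on simulated p-values; Python 3.11.15, pandas 2.3.3). File starts were raised by 1 to give 1-based coordinates. Of the members' symbols 55 are current in the reference tables and shfm1 is an older name of sem1.

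Roles were assigned by gene name. Every member may be named. Of each related list, up to 3 called genes per direction are named, and usp14, vcp, ubc and nfe2l1a whatever their values. The same was planned for nfe2l1b, but no row had that single gene name. Genes of the whole-embryo check outside that rule were chosen after their values were seen. Members and lists were chosen with earlier results of these data known. The alternatives were other q thresholds, the table-wide adjustment, FPKM minimums of 1 and 5, a pseudocount of 1 FPKM, centring on the median of all tested loci, leaving out shared loci, and keeping only particle subunits or adding a row of joined names. The comparison of the particles was also made with means, with summed FPKM and without inducible or tissue-specific beta genes. None of those beta genes was tested, so leaving them out could not change the comparison.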

Additional observations from a re-analysis of the deposited data

How the results depend on the processing

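The count of 3 proteasome genes higher in SU5402 became 0 with the table-wide adjustment and 1 with the authors' q at 0.01. With q at 0.1 it stayed 3. The FPKM minimums, leaving out shared loci and keeping only particle subunits could not change it. All 3 called genes pass each of these filters, and a filter adds no call. The count was also 3 with the tested row that joins psmd11b with another name, an alternative chosen after seeing the data. The count lower was 0 under each of these settings, where a filter could not have raised it. Over the related lists, the 4 called higher became 2 with the table-wide adjustment, 2 with q at 0.01, 7 with q at 0.1 and 2 without shared loci, and the 2 called lower became 1 with the table-wide adjustment, 1 with q at 0.01 and 3 with q at 0.1. Their median log2 change of 0.04 turned to -0.0086 without shared loci and to -0.0073 after centring on all tested loci. The proteasome median of 0.14 ranged from 0.10 to 0.18. The core minus regulatory difference of -0.12 was -0.0062 without shared loci, where fewer genes remain. It was -0.11 with the pseudocount and -0.07 with the 5 FPKM minimum. With summed FPKM it was -0.06, and with means in place of medians -0.04. Centring, the 1 FPKM minimum and leaving out inducible or tissue-specific beta genes could not change it. Centring shifts both medians alike, and neither of the others removes a tested gene. Each of the 48 tested genes kept its sign after centring. A pseudocount of 1 FPKM cannot change a sign, so it gave no check of direction. No paired analysis was possible because the table holds 1 pooled value per condition, and for the same reason no replicate could be left out. Depth per sample is unknown.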
